A study of Mus musculus with 6 samples.

Results

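The aminoacyl-tRNA synthetases are the enzymes that join each amino acid to its transfer RNA. The set described here was picked by gene name and holds the nuclear genes that the deposited table names as such enzymes, cytosolic or mitochondrial. It has 38 members of the 21958 genes in the table. Of these, 21 act in the cytosol and 17 in mitochondria. All 38 had enough reads to be tested, among 12800 tested genes. Tarsl2, a threonyl-tRNA synthetase-like gene whose name ends like the mitochondrial ones, was placed with the cytosolic enzymes as an exception.

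RNA was sequenced in bulk from MC38 tumors, grown under the skin of the right flank in male C57BL/6J mice from a mouse colon carcinoma line. The Mn-N/C group (n = 3) received the manganese single-atom nanozyme Mn-N/C, a carbon-based particle with dispersed manganese atoms, injected into the tumor at 70 mg/kg. The vehicle group (n = 3) received saline by the same route. Injections of 50 µL were given every 3 days, and tumors were collected at 800 to 1000 mm³. Both groups carry the same tumor line in the same strain, and the labels name no other agent, allele or age. The labels do not say that the libraries of a group came from separate animals, so p-values measure only the spread between these samples.

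Protein synthesis in the cytosol and in mitochondria uses separate transfer RNAs, and most amino acids have a separate nuclear gene for each compartment. Glycyl- and lysyl-tRNA synthetase (Gars and Kars) serve both from one gene, and mitochondria charge glutamine through an amidotransferase in place of a synthetase. Several cytosolic enzymes sit in a multi-synthetase complex held together by scaffold proteins, and many cytosolic synthetase genes are known targets of ATF4, the transcription factor of the amino acid response.

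ATF4 acts with C/EBP proteins through a composite element, searched here as TGATGNAA and its reverse complement TTNCATCA in the promoter windows of RefSeq (GRCm38.p6, 250 bases before to 50 after the start). A window was found for 28 of the 38 members, 14 in each compartment. The element was present in 5 of 14 cytosolic windows (35.7%), in 0 of 14 mitochondrial windows and in 1219 of 27025 genes with a window (4.51%). A match is a description of letters and not of binding. These stretches of 4 of the genes are shown because the element was found in windows of cytosolic members and in no mitochondrial one, each 5′ to 3′ on the gene's strand, with the element in capitals.
Gars, chr6:55037961-55037988 (+): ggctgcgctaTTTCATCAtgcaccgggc
Iars, chr13:49682127-49682154 (+): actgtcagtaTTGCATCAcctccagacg
Tars, chr15:11399656-11399683 (-): aggagtcccgTTGCATCAgctggttagc
Yars, chr4:129189896-129189923 (+): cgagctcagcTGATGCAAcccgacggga
Only Gars among these was taken by the rule for named genes, and the other 3 were chosen after their values were seen. Aars also held the element.

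Library totals were 16647865 to 18961134 counts in Mn-N/C and 14988588 to 18439017 in vehicle. Synthetase genes took 0.710 to 0.753% of counts in Mn-N/C and 0.670 to 0.780% in vehicle. Of 6 epithelial markers, 5 had a mean under 1 CPM (counts scaled to a common library size): Epcam, Krt8, Krt18, Krt19 and Cldn4. The other, Cdh1, had 29.6 to 39.5 CPM in Mn-N/C and 18.1 to 31.4 CPM in vehicle. The summed level of the 6 was 30.0 to 40.3 CPM in Mn-N/C and 18.4 to 33.9 CPM in vehicle, most of it from Cdh1. Summed leukocyte and macrophage markers were 821 to 996 CPM in Mn-N/C and 754 to 861 CPM in vehicle, with all 6 detected, and summed skeletal muscle markers 6.13 to 516 CPM in Mn-N/C and 12.4 to 174 CPM in vehicle. The part of these cell types in the results was not tested, and in bulk tissue fewer cells of a type cannot be told apart from less RNA per cell.

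Levels per length were far higher for the cytosolic enzymes. On the scale of FPKM, which divides counts by library size and gene length, the median level of the 21 cytosolic members over all libraries was 40.5, with 20 over 10, and that of the 17 mitochondrial members was 4.82, with 4 over 10. Gars, the glycyl enzyme of both compartments, had the highest mean level (204 FPKM) and Tarsl2 the lowest (1.19 FPKM). Such levels rest on the gene lengths in the deposited table, 3119 bases for Gars and 9282 for the alanyl gene Aars. Aars had more counts than Gars in every library. Among mitochondrial enzymes the mean level ranged from 1.74 FPKM for Nars2, for asparagine, to 13.4 FPKM for Lars2, for leucine. For 14 amino acids each mitochondrial gene was paired with 1 cytosolic gene. Ears2, Pars2 and Fars2 were left out of these pairs because their cytosolic counterparts are the bifunctional Eprs and the subunit genes Farsa and Farsb. In the 14 pairs the cytosolic level was 3.01 to 64.1 times the mitochondrial one, with a median of 6.70.

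**Figure D1:**
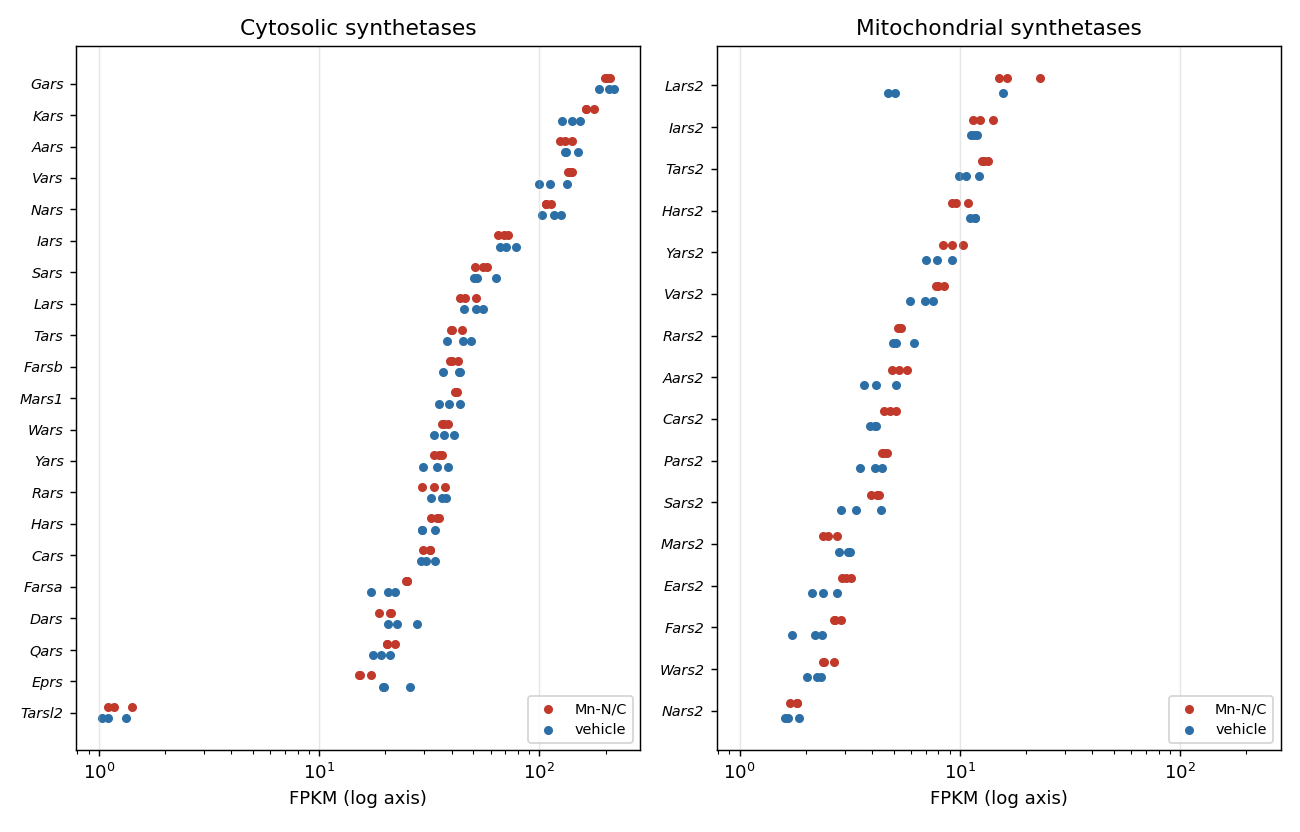
Level of each synthetase gene in FPKM on a log axis, with Mn-N/C libraries in red above vehicle libraries in blue, one point for each library and 16 of the 17 mitochondrial genes drawn. The cytosolic genes have a median of 40.5 FPKM and the mitochondrial genes a median of 4.82 FPKM.

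The comparison of Mn-N/C with vehicle asks which synthetase transcripts differ in treated tumors. At an adjusted p under 0.05 in edgeR's quasi-likelihood test, 0 of 12800 genes (0%) and so 0 of the 38 members were called. By the unadjusted p, 2682 genes were under 0.05, and DESeq2 called 753 genes, 2.53% of the tested genes as higher and 3.35% as lower in Mn-N/C. DESeq2 called 4 members, 3 as higher, among them Farsa and Kars, and 1 as lower, Eprs. The other values below are therefore given as levels and differences, without a call.

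The 17 mitochondrial enzymes had mostly higher means in Mn-N/C. A higher mean was found for 14 of 17, against 50.2% of all tested genes, and the median log2 fold change was 0.24, against 0.00 over all tested genes. An unadjusted edgeR p under 0.05 was reached by 7 as higher (background 9.82% of genes) and by 2 as lower (background 11.1%). All 3 Mn-N/C libraries lay above all vehicle libraries for 8 of 17 (background 14.2%) and below them for 2 (background 12.1%). Leaving out 1 library at a time changed the 7 in all cases but 1, given here with the share of all genes higher at that p. Without Mn-N/C replicate 2 the count stayed at 7 (6.88% of genes). The count was 2 without Mn-N/C replicate 1 (5.06% of genes), 2 without vehicle replicate 1 (6.03%), 3 without vehicle replicate 3 (6.22%), 4 without Mn-N/C replicate 3 (7.51%) and 10 without vehicle replicate 2 (14.8%). The 2 lower members were 0 with DESeq2 (11.7% of all genes lower), no filter on low counts (9.37%), the length correction (6.80%) or the GC correction (5.71%). They were also 0 without Mn-N/C replicate 1 (5.77%), vehicle replicate 1 (8.06%) or vehicle replicate 3 (5.63%). Without any other single library, with limma and with the replicate block the count was 1, where 8.38 to 14.3% of all genes were lower.

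The 21 cytosolic enzymes had a higher mean in 12 genes and a lower one in 9, with a median log2 fold change of 0.02. This split rested on single libraries, since the higher mean was found for 18 without vehicle replicate 2 and for 8 without vehicle replicate 1. Of the 21, 3 had an unadjusted p under 0.05 as higher (background 9.82% of genes) and 1 as lower (background 11.1%). The groups did not overlap for 3 as higher (background 14.2%) and for 1 as lower (background 12.1%). Vehicle replicate 2 held the highest level of 13 of the 21 genes. Without that library, 6 cytosolic members had an unadjusted p under 0.05 as higher, where 14.8% of all genes did.

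**Figure D2:**
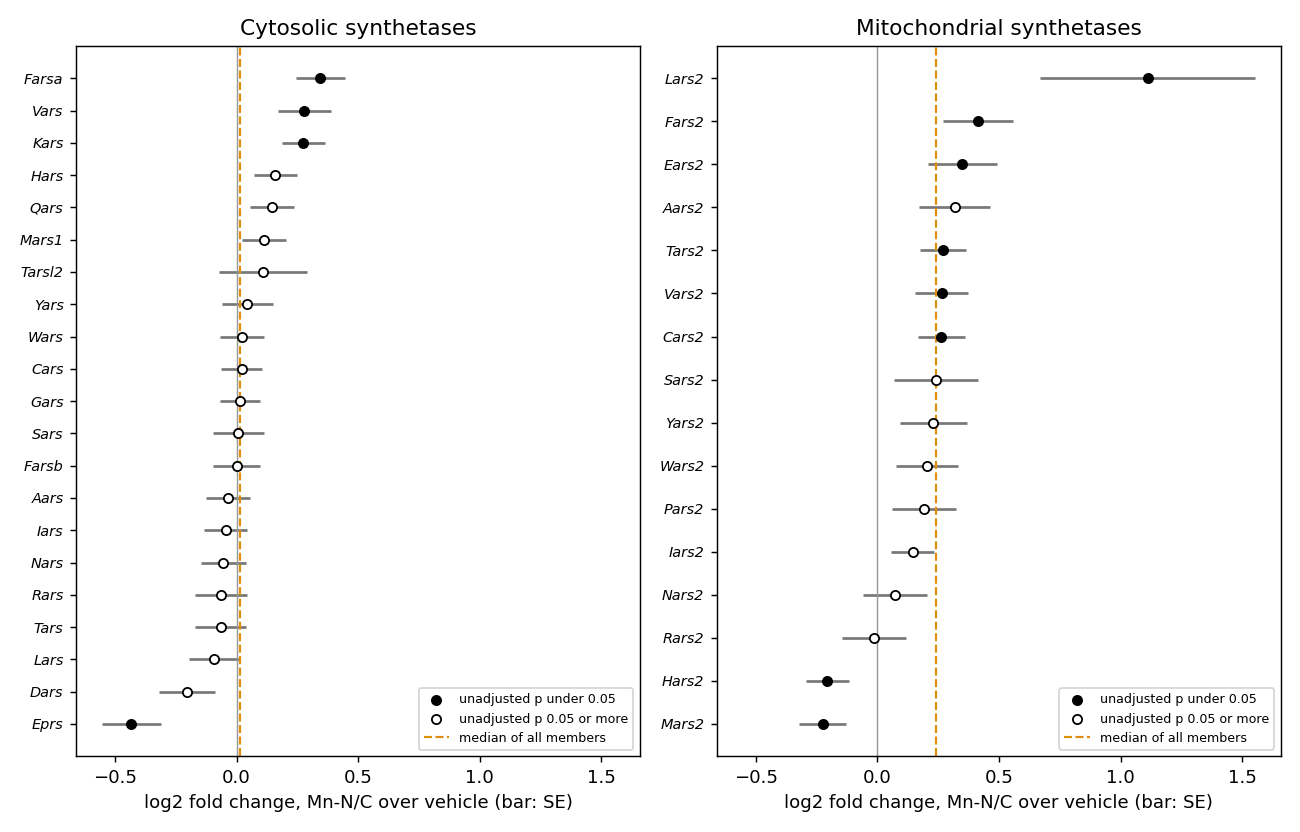
Log2 fold change of each synthetase gene, Mn-N/C over vehicle, with its standard error as a bar, filled where the unadjusted edgeR p was under 0.05. The dashed line marks the median, 0.02 over the 21 cytosolic and 0.24 over the 17 mitochondrial members, of which 16 are drawn.

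Averaged over its members as log2 deviation from each gene's mean, the mitochondrial set was at 0.17, 0.08 and 0.13 in Mn-N/C replicates 1 to 3, against -0.21, 0.01 and -0.19 in vehicle replicates 1 to 3. The same average for the cytosolic set was 0.02, -0.02 and 0.05 in Mn-N/C, against -0.12, 0.10 and -0.02 in vehicle. Cytosolic minus mitochondrial was -0.11 ± 0.04 in Mn-N/C and 0.11 ± 0.05 in vehicle (SD, n = 3 each). These differences did not overlap between the groups, also without Lars2, where they were -0.10, -0.09 and -0.05 in Mn-N/C, against 0.03, 0.11 and 0.10 in vehicle. They describe these libraries and carry no test.

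Among the mitochondrial enzymes with a smaller spread, Fars2, for phenylalanine, had 15.7, 16.5 and 15.7 CPM in Mn-N/C, against 13.3, 12.7 and 9.93 CPM in vehicle (log2 fold change 0.41 ± 0.14, SE, edgeR adjusted p 0.193). Tars2, for threonine, had 95.1, 88.7 and 88.0 CPM in Mn-N/C, against 72.4, 84.9 and 68.3 CPM in vehicle (0.27 ± 0.10, edgeR adjusted p 0.196). Neither gene overlapped between the groups, and vehicle replicate 2 came nearest to the treated tumors for Tars2. Cars2, for cysteine, had 37.9, 32.7 and 35.0 CPM in Mn-N/C, against 27.8, 30.3 and 29.8 CPM in vehicle (0.26 ± 0.10, edgeR adjusted p 0.200). Ears2, for glutamate, had 16.1, 14.96 and 16.6 CPM in Mn-N/C, against 10.7, 14.4 and 12.3 CPM in vehicle (0.35 ± 0.14, edgeR adjusted p 0.220). These groups did not overlap either.

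Lars2, the leucyl enzyme of mitochondria (ENSMUSG00000035202), had the widest spread. Its level was 262, 167 and 182 CPM in Mn-N/C, against 55.1, 175 and 52.5 CPM in vehicle. Vehicle replicate 2 lay within the range of the treated tumors, so the groups overlapped, while the other vehicle libraries were far below. The log2 fold change was 1.11 ± 0.44 (edgeR adjusted p 0.213). Without vehicle replicate 2, the library that made the groups overlap, it was 1.93, with an adjusted p of 0.0495 in edgeR. That fit called 583 of 13060 genes, and the omitted library was singled out by these same Lars2 values, so this p is no support for a difference. Lars2 made up 19.3, 13.6 and 14.5% of the summed mitochondrial synthetase FPKM in Mn-N/C, against 5.67, 14.7 and 5.27% in vehicle. The share of counts from genes of the mitochondrial genome was 0.767, 0.783 and 0.858% in Mn-N/C, against 0.988, 0.839 and 1.27% in vehicle, so the vehicle libraries low in Lars2 were the highest in that share. Of 11160 stretches of 31 bases in Lars2 transcripts, 97 (0.869%) also occur in transcripts of other genes. Exact shared runs were measured against ribosomal RNA genes and a few chosen non-coding genes, and were 52 bases with Gm15564, 14 with mt-Rnr1 and 12 with mt-Rnr2, the mitochondrial ribosomal RNAs. Of the genes outside that choice, Gm47414 shared 38 of the stretches. Whether reads of other RNA were counted in Lars2 was not tested.

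Iars2, for isoleucine, had the second highest mean level of the mitochondrial enzymes and 104, 126 and 109.9 CPM in Mn-N/C, against 97.6, 106 and 103 CPM in vehicle, which overlapped (0.15 ± 0.09, edgeR adjusted p 0.367). It shares 2102 of 8957 such stretches with transcripts on the opposite strand, and the strand setting of the counting is not given in the sources used here. Against the direction of most, Mars2, for methionine, had 27.5, 31.2 and 28.6 CPM in Mn-N/C and 34.4, 31.9 and 35.6 CPM in vehicle. Hars2, for histidine, had 42.0, 39.2 and 46.7 CPM in Mn-N/C, against 49.3, 47.8 and 50.2 CPM in vehicle. Both were lower in every treated library (log2 fold change -0.22 and -0.20, edgeR adjusted p 0.235 and 0.236) and were chosen after their values were seen, as were Aars, Farsb, Wars and Vars2 named below. With a correction for GC content, Mars2 had a log2 fold change of 0.15. The 7 mitochondrial members not yet given in full, Aars2, Yars2, Wars2, Pars2, Sars2, Nars2 and Rars2, had log2 fold changes between -0.01 and 0.32.

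Eprs had the smallest p of the cytosolic enzymes. It encodes the bifunctional enzyme for glutamate and proline in the multi-synthetase complex (ENSMUSG00000026615). Its level was 280.4, 275 and 313 CPM in Mn-N/C, against 346, 358 and 469 CPM in vehicle, lower in every treated library and highest in vehicle replicate 3. The log2 fold change was -0.43 ± 0.12, with an adjusted p of 0.182 in edgeR and 0.024 in DESeq2. It was -0.21 with the length correction, -0.25 with the GC correction and -0.28 without vehicle replicate 3, and under both corrections Farsa (0.38 and 0.35) and Kars (0.31 and 0.33) had the larger values.

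Farsa, the catalytic subunit of the phenylalanyl enzyme (ENSMUSG00000003808), had 115, 114 and 115 CPM in Mn-N/C, against 91.4, 101 and 77.6 CPM in vehicle, with no overlap. The log2 fold change was 0.34 ± 0.10 (adjusted p 0.182 in edgeR and 0.040 in DESeq2). Its partner subunit Farsb had 114, 104 and 103 CPM in Mn-N/C, against 93.7, 115 and 113 CPM in vehicle, a log2 fold change of 0.00 ± 0.10. The Farsa to Farsb ratio was 1.01, 1.09 and 1.11 in Mn-N/C, against 0.975, 0.882 and 0.686 in vehicle, a log2 difference of 0.35 (exact two-sided permutation p = 0.1, the smallest that 3 against 3 allows). Farsa was named for its small p in these same libraries and Farsb after its values were seen. The permutation p is therefore no support for a difference.

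Kars, the lysyl enzyme of both compartments, had 803, 719 and 733 CPM in Mn-N/C, against 616, 685 and 564 CPM in vehicle (0.27 ± 0.09, adjusted p 0.182 in edgeR and 0.049 in DESeq2). Vars, the valyl enzyme that binds the elongation factor complex, had 802, 767 and 762 CPM in Mn-N/C, against 616, 749 and 555 CPM in vehicle (0.28 ± 0.11, edgeR adjusted p 0.210). Neither gene overlapped between the groups, and in both vehicle replicate 2 was the highest of its group. The mitochondrial valyl enzyme Vars2 had a log2 fold change of 0.26 ± 0.11. With the GC correction both valyl genes had 0.17.

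**Figure D3:**
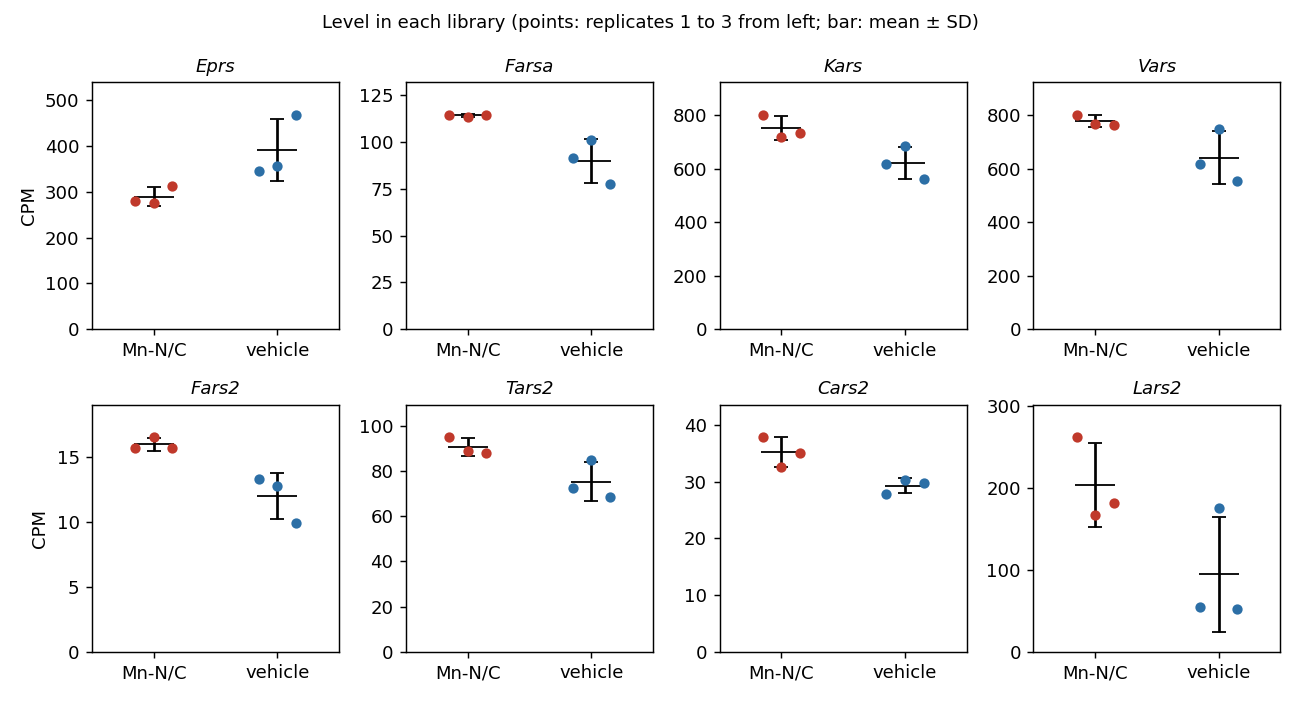
Level in CPM of 8 synthetase genes in each library, with points for replicates 1 to 3 from left to right and bars for the mean ± SD of each group. Eprs is lower and Farsa, Kars, Vars, Fars2, Tars2 and Cars2 are higher in all Mn-N/C libraries, while Lars2 overlaps through vehicle replicate 2 at 175 CPM.

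Hars, for histidine, had 87.4, 83.8 and 79.1 CPM in Mn-N/C, against 70.2, 82.2 and 71.6 CPM in vehicle (0.16 ± 0.09, edgeR adjusted p 0.321). Dars, for aspartate, had 82.8, 91.7 and 91.8 CPM in Mn-N/C, against 96.3, 90.1 and 121 CPM in vehicle (-0.20 ± 0.11, edgeR adjusted p 0.336). Both overlapped between the groups, and Dars had 0.09 with the GC correction. Gars had 646, 613 and 657 CPM in Mn-N/C, against 571, 683 and 643 CPM in vehicle, with a log2 fold change of 0.02 ± 0.08. Aars, the alanyl enzyme, had 1239, 1142 and 1319.6 CPM in Mn-N/C, against 1195, 1391 and 1206 CPM in vehicle (-0.03 ± 0.09), and shares 13.9% of its 31-base stretches with other genes, mostly Exosc6. Wars, the tryptophanyl enzyme known to be induced by interferon gamma, had 128, 131 and 128 CPM in Mn-N/C, against 124, 142 and 115 CPM in vehicle (0.02 ± 0.09). The remaining cytosolic members had log2 fold changes between -0.09 and 0.15.

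The 5 genes that hold the composite element (Aars, Gars, Iars, Tars and Yars) had log2 fold changes of -0.03, 0.02, -0.04, -0.07 and 0.04, and the sign of each turned in at least 1 alternative. Iars shares 14.7% of its 31-base stretches with other transcripts, mostly the pseudogene Gm4849. Farsa, Kars and Eprs had a window without these letters. By structural class of the catalytic domain, class I members had a higher mean in 13 of 18 and a median of 0.13, and class II members in 13 of 19 and a median of 0.11. The 8 members of the multi-synthetase complex had a higher mean in 3 and a median of -0.05, and the 13 other cytosolic members in 9 and a median of 0.02.

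In the 14 pairs of a mitochondrial and a cytosolic gene for the same amino acid, without Ears2, Pars2 and Fars2, 11 of 14 log2 ratios were higher and 3 lower in Mn-N/C, with a median difference of 0.18. For Lars2 to Lars the ratio of CPM was 1.05, 0.715 and 0.654 in Mn-N/C, against 0.232, 0.585 and 0.190 in vehicle (log2 difference 1.42, exact two-sided permutation p = 0.1, the smallest possible). For Hars2 to Hars it was 0.481, 0.467 and 0.590 in Mn-N/C, against 0.703, 0.582 and 0.700 in vehicle (log2 difference -0.37, exact permutation p = 0.2), and these groups overlapped. The ratio of valyl genes differed by -0.02.

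**Figure D4:**
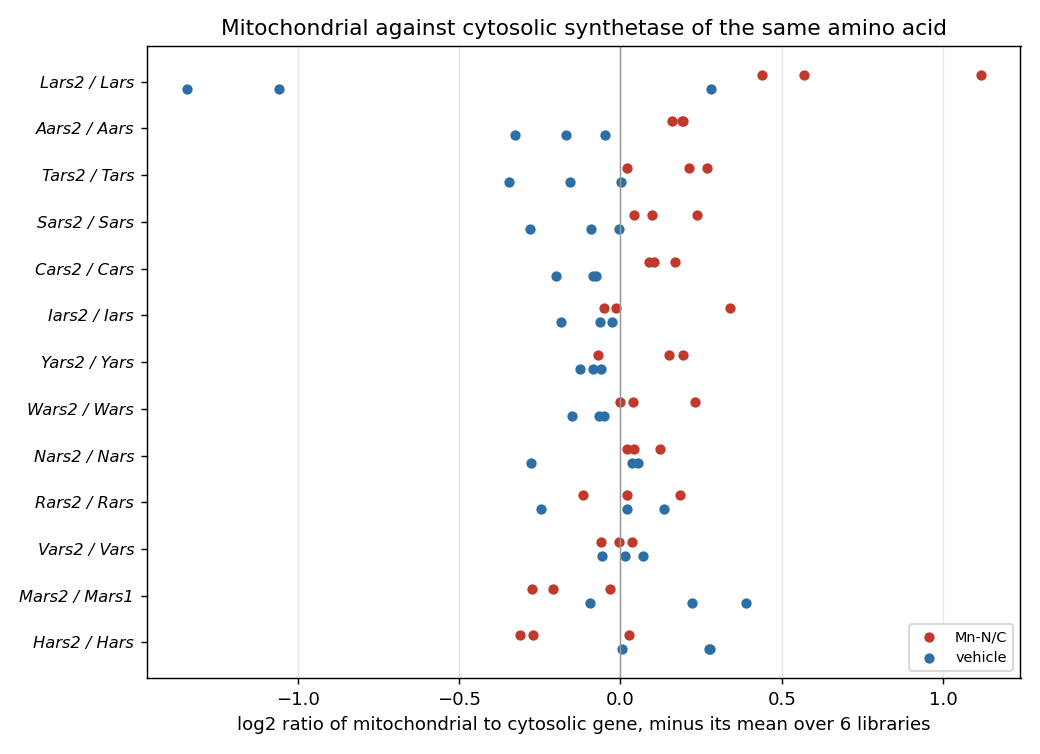
Log2 ratio of the mitochondrial to the cytosolic synthetase gene for the same amino acid, centred on its mean over the 6 libraries, with Mn-N/C in red above vehicle in blue. The figure draws 13 of the 14 ratios, and those of Vars2, Mars2 and Hars2 are the 3 with a lower mean in Mn-N/C.

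Gene fold changes followed GC content across genes in these libraries (Spearman rho 0.49 over genes, which are not independent replicates). The libraries' own correlations with GC content were 0.40, 0.33 and 0.20 in Mn-N/C, against -0.25, 0.16 and -0.53 in vehicle. Median GC content was 49.4% in cytosolic, 48.2% in mitochondrial and 49.8% in all tested genes. With a GC correction the median log2 fold change was 0.22 for mitochondrial members, with 16 of 17 higher, and 0.02 for cytosolic members. With a length correction the medians were 0.27 and 0.06 for mitochondrial and cytosolic members, and that of all genes was 0.04.

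Genes that work beside the synthetases were counted in the same test. Of 14 partners of mitochondrial tRNA charging and translation, 9 had a higher mean in Mn-N/C and the median log2 fold change was 0.19, with 0.08 without vehicle replicate 3, 0.29 without vehicle replicate 2 and 0.13 with the GC correction. An unadjusted p under 0.05 was reached by 4 as higher (background 9.82% of genes) and by 0 as lower (background 11.1%). The 4 were Elac2, which trims tRNA ends (0.35), Tufm (0.31) and Gfm1 (0.24), the mitochondrial elongation factors, and Qrsl1 (0.39). Qrsl1 is an amidotransferase subunit that completes glutaminyl-tRNA. The scaffold Aimp2 had 39.0, 38.7 and 36.0 CPM in Mn-N/C, against 27.6, 33.5 and 26.4 CPM in vehicle (0.38 ± 0.11, edgeR adjusted p 0.182), while the scaffolds Aimp1 and Eef1e1 had log2 fold changes of -0.08 and 0.19, and of 0.32 and 0.35 with the GC correction. Of 7 genes of tRNA editing and hydrolysis, 1 had an unadjusted p under 0.05, Dtd2 (0.33), which removes wrongly joined amino acids from tRNA, and the median was 0.03. Of 9 genes of cytosolic translation elongation, not all of them elongation factors, 3 were higher at that p. These were Eef1akmt1, Eif5a and Eef1d, with 0.58, 0.42 and 0.31. Eif5a2 was the 1 lower gene (-0.48), and had -0.07 with the GC correction and -0.23 without vehicle replicate 3. The background given above, 9.82% and 11.1% of genes, also applies to the editing and elongation lists. Counts for these short lists with a library left out are not given. They are therefore not read as a property of the lists.

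The ATF4 and amino acid response list, whose targets include cytosolic synthetases, had 35 tested genes apart from the synthetases. The mean was higher in Mn-N/C for 14 and lower for 21, and the median log2 fold change was -0.07. This median was 0.07 without vehicle replicate 2, 0.02 without Mn-N/C replicate 2 and -0.22 without Mn-N/C replicate 3. An unadjusted p under 0.05 was reached by 0 as higher and 12 as lower, against 9.82% and 11.1% of all genes. DESeq2 called 3 of them as lower: Ddit4, an inhibitor of mTORC1, had 103, 51.3 and 73.4 CPM in Mn-N/C, against 132, 114 and 138 CPM in vehicle (-0.75), and Cebpg and Nupr1, transcriptional regulators, had -0.34 and -0.48. With the GC correction Cebpg had -0.13 with an unadjusted edgeR p of 0.149. Ddit3, the stress regulator CHOP, had -0.69 (it shares 38 stretches with Mars1 on the opposite strand) and the amino acid transporter Slc38a2 -0.20, or -0.05 with the GC correction. By real-time PCR, the authors reported higher Ddit3 mRNA after Mn-N/C in tumor cells sorted from MC38-OVA-RFP tumors, whereas these libraries are bulk tissue. Atf4 itself had -0.02 and Asns, its asparagine synthetase target, 0.02, both chosen after their values were seen. The 12 lower genes were 5 without Mn-N/C replicate 2 (8.38% of all genes), 5 without vehicle replicate 2 (14.3%), 5 without vehicle replicate 3 (5.63%), 8 without Mn-N/C replicate 1 (5.77%), 7 with the length correction (6.80%) and 8 with the GC correction (5.71%). Without vehicle replicate 2 the count of higher genes was 9, where 14.8% of all genes were higher.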

How the data were processed

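Bulk RNA-seq libraries from 3 Mn-N/C and 3 vehicle MC38 tumors were used. HISAT2 2.0 and the build mm10 appear in the submitters' notes. How reads were counted, over which gene models and with which strand setting is not given in the sources used here. Per gene, the authors deposited raw read counts and FPKM values made from them with each gene's length. The table's own gene coordinates, equal to GRCm38 for 1 of 38 members, are not printed. One mitochondrial member and one promoter stretch are not reported here, though the counts and medians include them.

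Counts were tested with edgeR 4.0.16 (TMM, genes with low counts filtered, quasi-likelihood test, Benjamini-Hochberg adjustment) in R 4.3.3. DESeq2 1.42.0 and limma 3.58.1 on log2(FPKM + 1) and log2(FPKM + 0.1), other scaling, no filter, a replicate block, length and GC corrections and leaving out each library were alternatives. The test was checked on simulated data. CPM used the TMM library sizes. Same-numbered samples were not paired by the labels. The members and gene lists were chosen with earlier results of these data known. Genes named were Lars2, the 6 members with the smallest p and the 2 with the highest mean FPKM in each compartment, and up to 4 genes with the smallest p and the highest mean of each other list. Sequences came from RefSeq (GRCm38.p6). Shared 31-base stretches were counted in GENCODE M21 transcripts.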

Additional observations from a re-analysis of the deposited data

How the results depend on the processing

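Genes called over all tested genes numbered 0 to 583 when each library was left out in turn, with 583 without vehicle replicate 2, among them the members Farsa, Vars, Tars2 and Lars2, and DESeq2 called 753. Over the same omissions, members higher at an unadjusted p under 0.05 numbered 3 to 16, where 5.06 to 14.8% of all genes were higher. Lower members numbered 1 to 3, where 5.63 to 14.3% of all genes were lower. The lower count was 1 with DESeq2 (11.7% of all genes), 1 with the GC correction (5.71%), 0 with the length correction (6.80%) and 1 with no filter (9.37%). Members without overlap numbered 11 to 21 as higher and 3 to 4 as lower, and the lower count was 0 with the GC and 1 with the length correction. With all libraries and no correction, 14.2% of all genes did not overlap as higher and 12.1% as lower. The shares of all genes under the other settings are not given here, so those counts have no background to be read against. A left-out library makes non-overlap easier to reach for any gene, so a rise in these counts is not read as a property of the members. The median log2 fold change ranged over these omissions within -0.05 to 0.09 for cytosolic and 0.21 to 0.36 for mitochondrial members, and their difference within -0.27 to -0.19. The replicate block, fitted though the numbers pair no samples (correlations of same-numbered deviations -0.15, -0.01 and 0.12), called 0 genes, with 2977 at an unadjusted p under 0.05, and gave medians of 0.02 and 0.26. Directions turned for Aars (0.081 with the length correction, -0.085 to 0.054 over omissions), Gars (-0.0014 with the GC correction and -0.0013 with limma at either pseudocount, -0.046 to 0.089 over omissions), Dars (0.086), Mars2 (0.15), Aimp1 (0.32) and Ptrh2 (0.034) with the GC correction, and over omissions for Aarsd1 (-0.69 to 0.072), Eef1a1 (-0.13 to 0.0052), Atf4 (-0.079 to 0.071) and Asns (-0.085 to 0.18). They also turned for Iars (0.0092 with the length correction, -0.10 to 0.048 over omissions), Tars (0.017 with the GC correction, -0.16 to 0.037), Yars (-0.016, -0.047 to 0.16), Wars (-0.044, -0.045 to 0.13) and Farsb (0.090 with the GC correction, 0.0027 with no filter, 0.0036 with the replicate block, -0.080 to 0.065 over omissions). The cause was not tested. The lowest edgeR adjusted p over all genes was 0.182.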
